A study of Arabidopsis thaliana with 9 samples.

Results

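The transcripts that responded within 2 h to activation of the floral regulator APETALA1 (AP1) while translation was inhibited were read from inflorescences of Arabidopsis thaliana by RNA-seq. The comparison sets 3 libraries given dexamethasone + cycloheximide against 3 given cycloheximide alone, both for 2 h, and 3 untreated libraries show what cycloheximide itself did. All 9 libraries came from the genotype 35S:AP1-GR ap1,cal, from plants of 5 weeks grown in soil under long days at 22 °C, and the labels call the 3 libraries of each group biological replicates. Treated libraries were paired by replicate number, and loci were kept with status OK in all 9 and with at least 1 FPKM on average (fragments scaled to transcript length and to the mapped fragments of the library). This left 19569 of 33871 loci, of which 17135 covered a single annotated gene, 7599 of them with a symbol. AP1-GR was present in all groups, and a response to dexamethasone as such and a response to the fusion protein cannot be told apart. The 35S promoter drives the fusion protein in most plant cells, also outside those in which AP1 normally acts, and in bulk inflorescence tissue fewer cells of a type and less RNA per cell cannot be told apart.

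AP1 is a MADS-domain transcription factor that gives young meristems on the flanks of the inflorescence their floral identity. In Arabidopsis it acts against genes that keep shoots indeterminate, above all TFL1, and with LFY it opens the programme of floral organ identity genes. Plants that lack AP1 and its paralog CAL form cauliflower-like masses of meristems that do not become flowers. A protein fused to the hormone-binding domain of the glucocorticoid receptor (GR) stays in the cytoplasm until dexamethasone lets it enter the nucleus, and cycloheximide blocks translation elongation, so that transcripts that change without new protein are the candidates for direct control. Cycloheximide also changes many transcripts by itself, short-lived and stress-related ones among them.

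The deposited FPKM carry no read totals. Relative depth, read from the FPKM steps of the shortest loci, was 0.364 to 0.711 of the deepest library with dexamethasone + cycloheximide, 0.559 to 0.649 with cycloheximide and 0.49 to 1 in untreated libraries. The highest locus took 22.2% to 22.8% of the FPKM sum with dexamethasone + cycloheximide, 14% to 16.9% with cycloheximide and 2.32% to 3.58% in untreated libraries. The medians of the libraries were close all the same, with median-ratio size factors of 0.980 to 1.044 and a median log2 difference of 0.01 over all loci between the treated groups. Dexamethasone + cycloheximide replicate 3 and cycloheximide replicate 3 were high together in genes such as UGT74E2 and AOX1D. Cycloheximide replicate 1 was high in AP3, PI, SEP3, CRC and AG, as given beside those genes.

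AP1 (AT1G69120, chr1:25982330-25986313) itself had 989.9, 1576 and 1487 FPKM with dexamethasone + cycloheximide, 1088, 1475 and 1536 with cycloheximide and 1098, 1183 and 1380 untreated. The groups overlapped, and reads of the transgene and of the mutated locus are not separated. CAL (AT1G26310, chr1:9100079-9103603) had 42.19, 36.35 and 36.43 FPKM with dexamethasone + cycloheximide, 54.12, 45.1 and 42.87 with cycloheximide and 74.86, 66.75 and 62.98 untreated. Its 3 dexamethasone libraries lay below the 3 cycloheximide libraries, but the difference of -0.29 ± 0.08 did not pass the test (limma, adjusted p = 0.0559). Coordinates here and below are on the TAIR10 build. Differences are in log2(FPKM + 1), ± the standard error of the fit, with n = 3 libraries a group, and this scale understates the change of genes with low FPKM.

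Promoter sequence is shown for 3 genes not shifted by cycloheximide, while most called loci were shifted by it. LSH1 had the largest log2 fall among the named genes not shifted by cycloheximide that were called under every alternative setting. MIPS1 had the smallest p among named rises not shifted by cycloheximide, and HB51 is a rise whose window holds a CArG box. HB51 (AT5G03790, chr5:1004572-1006614), also known as LMI1, was chosen for display after its values and its motif were seen. Each is the 250 bases before the gene start annotated by RefSeq, on the gene's strand, from the RefSeq TAIR10.1 assembly, in lower case. Capitals mark matches to the CArG box, the site bound by MADS-domain proteins, here and below only in the form CCWWWWWWGG, where W is A or T. Other forms of the CArG box were not searched. Capitals also mark the G-box CACGTG, a site of bHLH and bZIP factors that reads the same on both strands.
LSH1, chr5:10455682-10455931, minus strand: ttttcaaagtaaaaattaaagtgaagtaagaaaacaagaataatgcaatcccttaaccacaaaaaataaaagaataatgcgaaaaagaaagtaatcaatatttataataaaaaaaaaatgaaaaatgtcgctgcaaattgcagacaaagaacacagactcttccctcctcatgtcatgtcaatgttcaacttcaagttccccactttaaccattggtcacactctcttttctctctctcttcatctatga
HB51, chr5:1004532-1004781, plus strand: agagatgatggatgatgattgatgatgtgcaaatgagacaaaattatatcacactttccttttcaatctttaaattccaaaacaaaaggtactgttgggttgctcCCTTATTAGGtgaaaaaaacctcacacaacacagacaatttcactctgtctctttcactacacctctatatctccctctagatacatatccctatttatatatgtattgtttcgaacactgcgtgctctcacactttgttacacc
MIPS1, chr4:18472049-18472298, minus strand: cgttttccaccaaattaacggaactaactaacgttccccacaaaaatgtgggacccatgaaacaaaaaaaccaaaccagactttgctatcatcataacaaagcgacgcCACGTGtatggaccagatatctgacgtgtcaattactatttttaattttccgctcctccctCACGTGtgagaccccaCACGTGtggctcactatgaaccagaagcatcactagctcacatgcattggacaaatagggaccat
The HB51 window holds 1 CArG box, 145 bases before that start. The HB51 locus as deposited begins earlier, so that 210 of the 250 bases, the CArG box among them, lie inside the measured locus, as at least 1 base does in 1027 (5.99%) of all windows. The MIPS1 window holds 3 G-boxes, the farthest at 142 bases before the start, and the LSH1 window holds neither motif. The LSH1 window overlaps the annotated gene AT5G28491. Neither a match nor its absence in this window says whether a factor binds.

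Across all 17134 tested single-gene loci with such a window, 461 (2.69%) held a CArG box and 1309 (7.64%) a G-box. Among the 149 rises not shifted by cycloheximide, 4 (2.68%) held a CArG box and 20 (13.4%) a G-box. Among the 197 falls not shifted by cycloheximide, 2 (1.02%) held a CArG box and 7 (3.55%) a G-box. The G-box share thus lay above that of all promoters in these rises and below it in these falls, as a description with no test. It was also above in rises shifted by cycloheximide the same way (10.5%) or the opposite way (17.4%). In falls shifted the same way (5.76%) or the opposite way (6.38%) it was below. Of the 17 flowering and floral regulators known from the literature as AP1 targets, 1 window (TOE1) held a CArG box and none held a G-box.

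TFL1, FD and LSH1 fell and MIPS1 and HB51 rose in inflorescences whose levels of these genes cycloheximide alone had left within 0.5 log2 of untreated, while most of the rises were in loci that cycloheximide had raised. In all, 1704 loci (8.71% of those tested) were called higher and 966 (4.94%) lower with dexamethasone + cycloheximide than with cycloheximide (limma with the replicate number as a block in the treated libraries, Benjamini-Hochberg adjusted p under 0.05). The median size was 0.66 for the rises and 0.47 for the falls, and 431 rises and 85 falls reached a log2 difference of 1. All 2670 called loci moved the same way in the 3 pairs, as 55.5% of all tested loci did. The libraries of the treated groups did not overlap in 1255 of the rises and 809 of the falls, against 25.4% of all tested loci. These counts come from the same libraries and pairs that gave the calls, so they describe the calls and are no separate evidence. Without the block 723 loci were called, 374 higher and 349 lower, all of them among the 2670. A gene called with the block alone therefore rests on the pairing, and its adjusted p without the block is given where it misses 0.05.

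Most of the called loci had also been shifted by cycloheximide. Between cycloheximide and untreated libraries 12043 loci (61.5%) were called. Untreated libraries are not paired with treated ones, yet the block takes spread shared by treated libraries of a number out of this error. The error can therefore be too small where cycloheximide replicates vary. ERD7, with 41.19, 34.77 and 85.36 FPKM with cycloheximide, had a standard error of 0.08 in this difference. The sorting below rests on these errors. Of the 1704 rises, 1474 (86.5%) were in loci that cycloheximide had shifted the same way, 56 the opposite way, 166 (9.74%) were not shifted and 8 lay between these definitions. Of the 966 falls, 581 (60.1%) were shifted the same way, 152 (15.7%) the opposite way, 221 (22.9%) were not shifted and 12 lay between. Not shifted means adjusted p of at least 0.05 and a log2 difference under 0.5 between cycloheximide and untreated. The cycloheximide libraries enter both differences, so this sorts the loci and is no test.

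**Figure D1:**
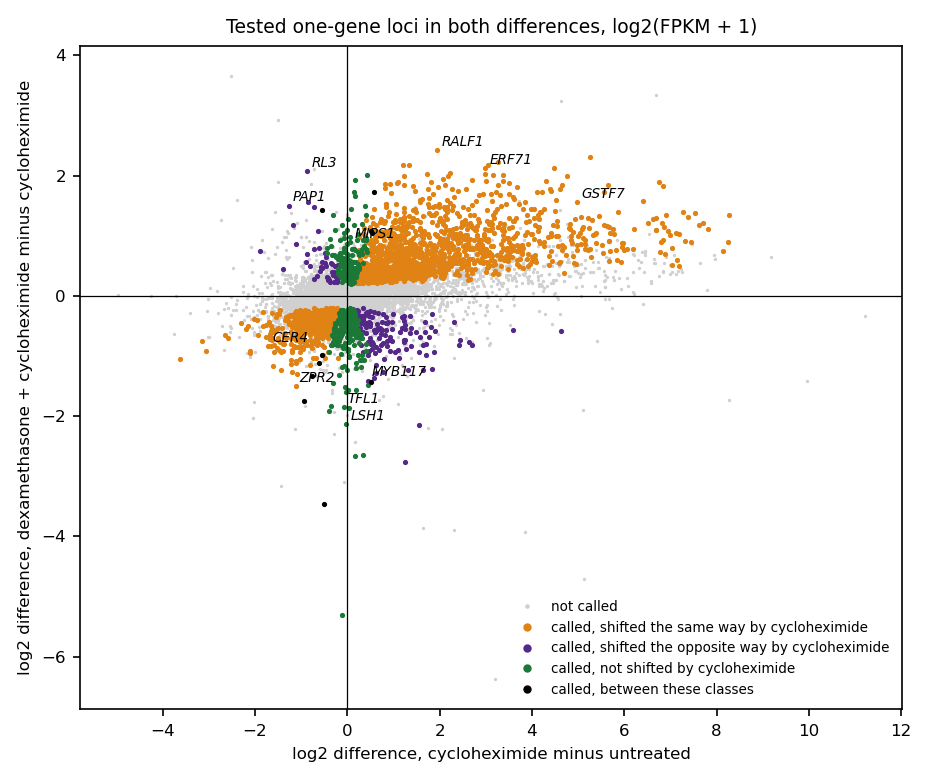
Each point is a tested single-gene locus, with the log2 difference of cycloheximide minus untreated on the horizontal axis and of dexamethasone + cycloheximide minus cycloheximide on the vertical axis, both in log2(FPKM + 1). Called loci are coloured by how cycloheximide had shifted them, and the upper right field, where both differences are positive, holds most of the rises (1474 of 1704 over all loci).

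The share of calls differed with what cycloheximide had done to a locus, in differences that share the cycloheximide libraries. Of the 5713 loci higher with cycloheximide than untreated, 25.8% rose and 2.66% fell, with a median difference of 0.20. Of the 6330 loci lower with cycloheximide, 0.885% rose and 9.18% fell, with a median of -0.10. Of the 6942 loci not shifted, 2.39% rose and 3.18% fell, with a median of 0.00. In the 2490 loci that cycloheximide raised by a log2 difference of 1 or more, the mean distance from untreated was 2.89, 2.93 and 3.23 in dexamethasone + cycloheximide replicates 1, 2 and 3 and 2.16, 2.56 and 2.88 in cycloheximide replicates 1, 2 and 3. The 3 dexamethasone libraries lay above the 3 cycloheximide libraries, by a narrow margin at the edge, and replicate 3 was the highest in both groups. In the 874 loci that cycloheximide lowered by 1 or more, the means were -1.63, -1.67 and -1.63 with dexamethasone + cycloheximide and -1.35, -1.38 and -1.54 with cycloheximide. A stronger cycloheximide response in the libraries that also had dexamethasone and an effect of AP1-GR on these loci cannot be told apart.

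**Figure D2:**
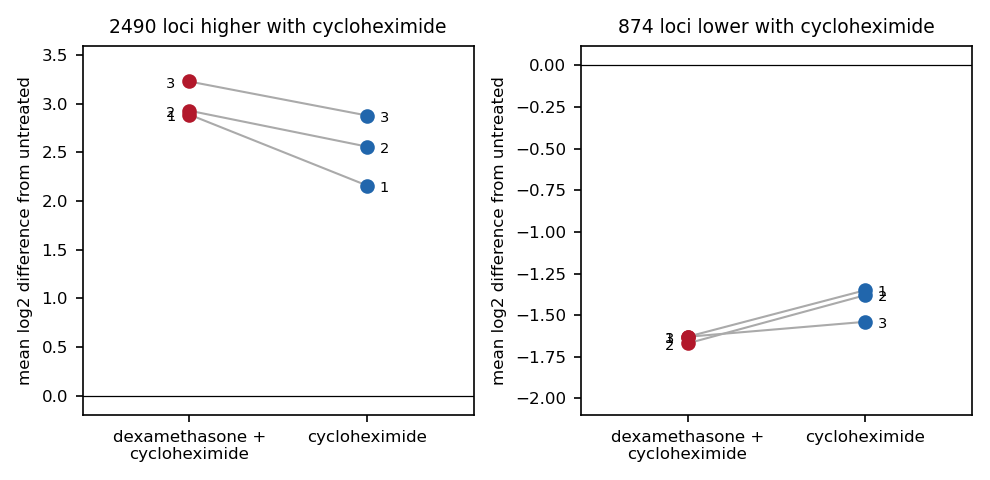
Mean log2 difference from untreated, in log2(FPKM + 1), of the 2490 loci raised and the 874 loci lowered by cycloheximide by at least 1, for each treated library, with lines joining libraries of the same replicate number (1 to 3). In each panel the 3 dexamethasone + cycloheximide libraries lie farther from 0 than the cycloheximide library of their number.

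Among the 17 literature targets of AP1, 7 fell (41.2%) and 2 rose (11.8%), against 4.94% and 8.71% of all loci. Their median was -0.37 against 0.01 over all loci. Of these calls 5 of the falls and none of the rises were also made without the block. TFL1 (AT5G03840, chr5:1024551-1025852), a relative of FT that keeps the inflorescence meristem indeterminate, had 40.67, 43.38 and 31.83 FPKM with dexamethasone + cycloheximide, 165.3, 143.6 and 117.5 with cycloheximide and 155.8, 156.9 and 136.1 untreated. Its dexamethasone libraries lay far below all 6 others, at 0.272 of the cycloheximide mean (-1.85 ± 0.09, limma, adjusted p = 0.00183). FD (AT4G35900, chr4:17004595-17006287), the bZIP partner of FT and TFL1, had 121.7, 134.6 and 124.3 FPKM with dexamethasone + cycloheximide, 242.5, 256.4 and 211.8 with cycloheximide and 230.7, 239.7 and 230.2 untreated (-0.89 ± 0.08, limma, adjusted p = 0.00267). BZIP27 (AT2G17770, chr2:7722839-7724426), the FD paralog known as FDP, had 69.13, 54.87 and 61.45 FPKM, against 143.9, 118.4 and 121.3 with cycloheximide and 145.4, 142.7 and 155.9 untreated (-1.04 ± 0.07, limma, adjusted p = 0.00183). In FD and BZIP27, too, the dexamethasone libraries stood apart from all others while cycloheximide and untreated libraries lay close, although the small drop of BZIP27 with cycloheximide (-0.21) passed its test.

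The other called members of that list changed less. The MADS-box repressor SVP had 85.59, 66.67 and 66.74 FPKM with dexamethasone + cycloheximide, 111.2, 100.8 and 96.51 with cycloheximide and 111, 101.4 and 99.53 untreated (-0.50 ± 0.07, limma, adjusted p = 0.012, and 0.0546 without the block). AGL24, a MADS-box promoter of flowering, had 44.18, 41.88 and 36.05 FPKM with dexamethasone + cycloheximide and 55.39, 48.82 and 41.47 with cycloheximide (-0.24 ± 0.05, limma, adjusted p = 0.0338, and 0.248 without the block). Its groups overlapped, and each pair was lower with dexamethasone. SPL9 and SPL15, SBP-box genes of the floral transition, fell by 0.72 and 0.49, after larger drops of 1.14 each with cycloheximide. SPL15 lies wholly opposite another gene, so its reads are uncertain. LFY, the master regulator that acts beside AP1, had 52.03, 36.83 and 40.23 FPKM with dexamethasone + cycloheximide, 36.86, 27.61 and 32.93 with cycloheximide and 22.22, 20.84 and 19 untreated (0.39 ± 0.08, limma, adjusted p = 0.0241, and 0.161 without the block). CKX3, a cytokinin-degrading oxidase, rose by 0.81 (limma, adjusted p = 0.0192, and 0.107 without the block), having risen by 1.43 with cycloheximide. The groups overlapped slightly in LFY, where dexamethasone + cycloheximide replicate 2 and cycloheximide replicate 1 were level.

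8 members of the list were not called. The AP2-like repressors SNZ, TOE3 and RAP2.7 (TOE1) differed by -0.37, -0.45 and 0.00 (limma, adjusted p = 0.172, 0.103 and 0.982). TEM1 and RAV2 (TEM2), repressors of FT, had 132.5 to 170.2 and 109.9 to 147.9 FPKM with dexamethasone + cycloheximide and 156 to 180.1 and 90.52 to 132.7 with cycloheximide. Both had been raised by cycloheximide, RAV2 by 6.58 log2. AGL20 (SOC1), LOG1 and SEP3 differed by -0.16, 0.18 and -0.71 (limma, adjusted p = 0.343, 0.444 and 0.239). Cycloheximide replicate 1 was high in SEP3, at 21.72 FPKM against 5.644 and 7.943 in the other cycloheximide libraries, and the difference was -0.21 without that pair.

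TFL1, FD, BZIP27 and SPL9 were called under all 14 alternative settings. SVP was not called without the pair numbered 2 or 3, AGL24 and LFY without any of the 3 pairs, SPL15 without pair 1 or 2, and CKX3 without pair 1 or 3. Their values then ranged over -0.56 to -0.45 for SVP, -0.27 to -0.21 for AGL24, 0.34 to 0.44 for LFY and -0.60 to -0.36 for SPL15.

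**Figure D3:**
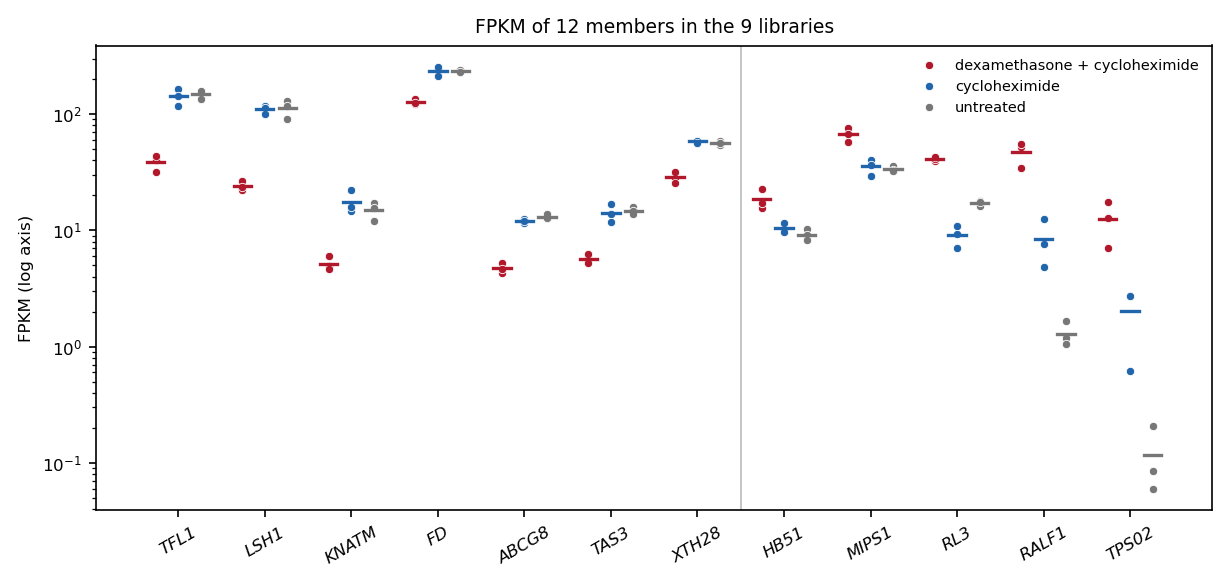
FPKM on a log axis of 12 genes in the 9 libraries, with a bar at the mean of each group of 3 libraries. Left of the line are falls, where the dexamethasone + cycloheximide libraries lie below both other groups, as for TFL1 at 31.83 to 43.38 FPKM, and right of it are rises, of which RALF1 and TPS02 were already above untreated with cycloheximide.

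The largest log2 fall among named genes called in every setting was in the ALOG family, DNA-binding proteins of boundaries and meristem maturation. Of its 5 tested members 2 fell (40%) and none rose, against 4.94% and 8.71% of all loci. LSH1 (AT5G28490, chr5:10453750-10455594) had 26.85, 22.46 and 23.7 FPKM with dexamethasone + cycloheximide, 118.5, 111.9 and 99.53 with cycloheximide and 129.2, 117.6 and 90.29 untreated (-2.13 ± 0.14, limma, adjusted p = 0.00183). The dexamethasone libraries lay at 0.221 of the cycloheximide mean, with a narrow spread, and the other 6 libraries overlapped. LSH4 (AT3G23290, chr3:8326825-8328132), expressed at organ boundaries, had 10.45, 8.842 and 8.701 FPKM with dexamethasone + cycloheximide, 23.13, 21.07 and 20.09 with cycloheximide and 51.16, 50.62 and 40.48 untreated (-1.12 ± 0.10, limma, adjusted p = 0.00302). LSH4 thus stepped down in both comparisons, without overlap between groups. Both kept their calls under all 14 settings.

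Of 82 homeodomain genes and small partners of them, 16 (19.5%) fell and 7 (8.54%) rose, against 4.94% and 8.71% of all loci. Without the block 10 were lower and 4 higher. KNATM (AT1G14760, chr1:5084352-5085213), a KNOX-related protein without a homeodomain that binds other TALE proteins, had 6.017, 4.896 and 4.648 FPKM with dexamethasone + cycloheximide, 22.16, 14.55 and 15.83 with cycloheximide and 17.37, 15.56 and 12.11 untreated (-1.57 ± 0.14, limma, adjusted p = 0.00287). It was not shifted by cycloheximide. The KNOX genes KNAT2 (-0.70), KNAT1 (-0.44), STM (-0.42) and KNAT6 (-0.21), which maintain meristem cells, fell, and cycloheximide had already lowered KNAT2, KNAT1 and STM (-0.64, -0.76 and -0.78) and had raised KNAT6 (0.35). KNAT1, STM and KNAT6 were not called without the block (limma, adjusted p = 0.0712, 0.118 and 0.0824).

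The little zipper genes ZPR1 and ZPR2, whose products bind and block class III homeodomain-leucine zipper proteins, fell together with 3 of those targets. ZPR2 (AT3G60890, chr3:22496926-22498002) had 6.184, 4.341 and 2.877 FPKM with dexamethasone + cycloheximide, 16.21, 14.52 and 11.59 with cycloheximide and 31.85, 39.33 and 25.2 untreated (-1.50 ± 0.17, limma, adjusted p = 0.0057). ZPR1 had 9.008, 11.15 and 5.577 FPKM with dexamethasone + cycloheximide, 25.95, 19.82 and 20.11 with cycloheximide and 59.72, 52.73 and 33.65 untreated (-1.30 ± 0.25, limma, adjusted p = 0.0241). The class III genes PHV, ATHB-15 and PHB, which set the upper side of organs, fell by 0.60, 0.32 and 0.29, the last pair not called without the block (limma, adjusted p = 0.0613 and 0.0923). In the WOX family WOX4, a regulator of vascular stem cells, fell to 2.436, 3.587 and 2.35 FPKM, against 6.339, 6.59 and 6.452 with cycloheximide and 9.45, 9.943 and 9.694 untreated (-0.99 ± 0.10, limma, adjusted p = 0.00387). WUS, the organiser of shoot stem cells, had 19.11, 14.93 and 16.36 FPKM with dexamethasone + cycloheximide, 12.05, 12.24 and 12.28 with cycloheximide and 6.687, 7.751 and 6.178 untreated (0.43 ± 0.10, limma, adjusted p = 0.0416, and 0.0614 without the block). CLV3, the peptide that limits WUS, went down in the same libraries, with 10.64, 6.713 and 5.109 FPKM with dexamethasone + cycloheximide and 16.81, 11.47 and 13.85 with cycloheximide (-0.86 ± 0.16, limma, adjusted p = 0.0197, and 0.0792 without the block).

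Among the homeodomain rises were HB51, HB-2 and HB17, all of the homeodomain-leucine zipper group. HB51, known as LMI1 and as a direct target of LFY, had 15.64, 17.16 and 22.8 FPKM with dexamethasone + cycloheximide, 9.987, 9.664 and 11.56 with cycloheximide and 10.33, 9.055 and 8.229 untreated (0.76 ± 0.10, limma, adjusted p = 0.0081). Its dexamethasone libraries lay above all others. WOX12 had 2.269, 1.534 and 2.151 FPKM with dexamethasone + cycloheximide, 0.9135, 0.3926 and 0.6372 with cycloheximide and 2.842, 2.871 and 1.98 untreated (0.86 ± 0.14, limma, adjusted p = 0.0134), so that dexamethasone brought it back towards the untreated level. WOX12 was not called without any of the 3 pairs (limma, adjusted p = 0.0538 to 0.062), ZPR1 without pair 1 or 3, STM without pair 1 or 2 and CLV3 without any of the 3. KNATM, KNAT2, ZPR2 and WOX4 were called under all 14 settings.

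**Figure D4:**
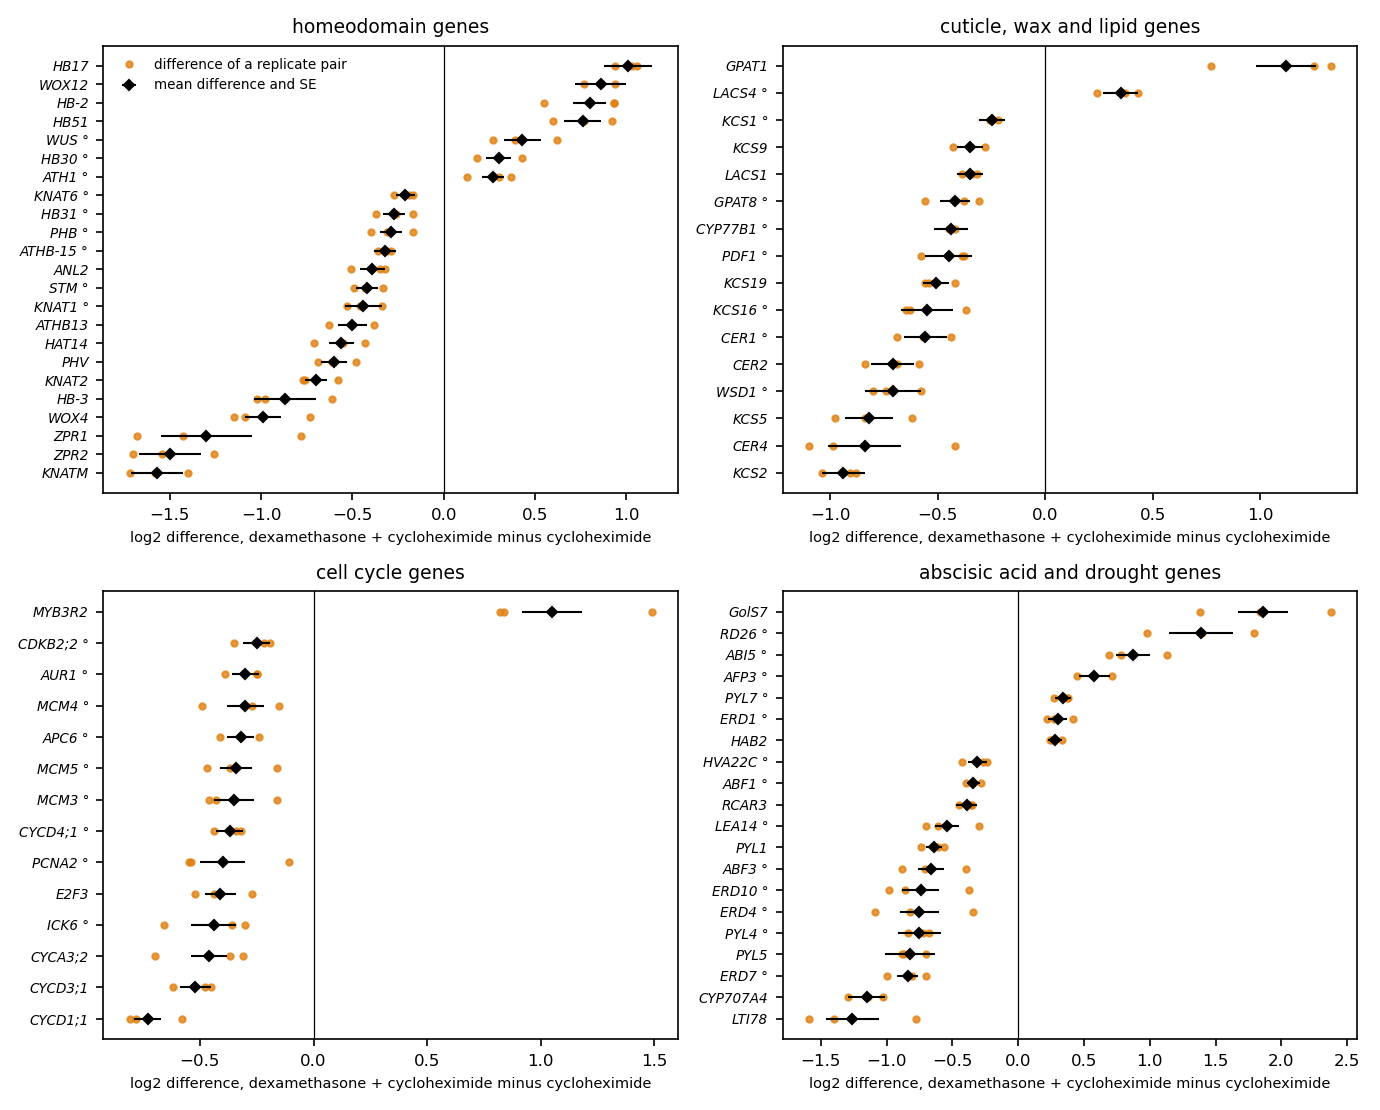
Called homeodomain, cuticle, wax and lipid, cell cycle, and abscisic acid and drought genes, with the log2 difference of dexamethasone + cycloheximide minus cycloheximide on the horizontal axis. Small points are the 3 replicate pairs, diamonds the mean with its standard error, and a degree sign marks genes not called without the block; 16 of 23 called homeodomain genes lie left of 0.

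MADS-box genes, the family of AP1 itself, gave 3 rises (8.82%) and 7 falls (20.6%) among 34 tested members, against 8.71% and 4.94% of all loci. The share of rises was thus close to that of all loci. Without the block 1 rise and 3 falls were called. Besides SVP and AGL24, AGL42 had 255.1, 231.4 and 205 FPKM with dexamethasone + cycloheximide, 425.3, 343.2 and 341.7 with cycloheximide and 444.6, 490.5 and 523.3 untreated (-0.68 ± 0.10, limma, adjusted p = 0.0107). AGL42, a relative of SOC1 that promotes flowering, thus separated without overlap. AGL16 fell by 0.47 (limma, adjusted p = 0.00883), and AGL80, which acts in the female gametophyte, rose by 0.49 (limma, adjusted p = 0.0112) after a rise of 1.24 with cycloheximide. These 3 were not called without pair 1 (limma, adjusted p = 0.0643, 0.0531 and 0.0703), nor AGL42 and AGL80 without pair 3 (limma, adjusted p = 0.0526 and 0.0553).

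AP3 and PI, which specify petals and stamens, were lower with dexamethasone in each pair, least in pair 2. AP3 had 1.938, 0.6406 and 0.4866 FPKM with dexamethasone + cycloheximide, 13.04, 1.159 and 5.193 with cycloheximide and 3.892, 4.892 and 5.188 untreated (-1.57 ± 0.35, limma, adjusted p = 0.0351, and 0.163 without the block). PI had 17.29, 20.38 and 15.9 FPKM with dexamethasone + cycloheximide, 37.11, 23.29 and 27.8 with cycloheximide and 37.83, 43.49 and 42.34 untreated (-0.67 ± 0.16, limma, adjusted p = 0.0418, and 0.0614 without the block). Without pair 1 neither was called (AP3 -1.23 and PI -0.48, limma, adjusted p = 0.17 and 0.177), and the same held without pair 3 (limma, adjusted p = 0.138 and 0.149). Without pair 2 both were called (-2.16 and -0.91, limma, adjusted p = 0.00766 and 0.0166). Of the list of 14 floral organ and anther markers 7 were tested, with these 2 falls and 1 rise, EMS1 (0.51), a receptor kinase of the anther that was not called without any of the 3 pairs. CRC, AG and SHP1 were not called, and cycloheximide replicate 1 was the highest cycloheximide library in each. CRC had 4.705, 1.374 and 2.061 FPKM with cycloheximide, and AG had 2.663, 0.4202 and 1.219. Their differences were -0.92 and -0.89 (limma, adjusted p = 0.0824 and 0.0903). In TPD1 and EMS1 another cycloheximide library was the highest. The summed level of the list was 59.01 to 64.34 FPKM with dexamethasone + cycloheximide, 61.17 to 94.87 with cycloheximide and 81.14 to 83.49 untreated. DYT1, SUP and MS1 were too low to be tested in any group. They were listed at 0 in all 3 dexamethasone libraries and at no more than 0.3067 FPKM in any other library. MS1 was at 0 in all 3 untreated libraries too. The part of organ tissue in these values was not tested. The 10 markers of phloem, xylem, trichomes and guard cells summed to 71.01 to 96.94 FPKM with dexamethasone + cycloheximide, 65.62 to 83.98 with cycloheximide and 63.66 to 64.72 untreated. Of the 9 tested among them APL rose (0.32) and SPCH fell (-0.51), neither of them called without the block (limma, adjusted p = 0.106 and 0.163). The 4 meristem markers STM, WUS, CLV3 and LFY summed to 119.1 to 154.6, 131.4 to 168.3 and 183.7 to 194.5 FPKM in the dexamethasone + cycloheximide, cycloheximide and untreated libraries, so meristem RNA was present throughout.

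In the MYB and MYB-like genes 12 of 70 rose (17.1%) and 5 fell (7.14%), against 8.71% and 4.94% of all loci. Of these, 5 rises and 3 falls were also called without the block. The RADIALIS-like gene RL3 (AT4G36570, chr4:17254610-17255716) had 39.74, 41.14 and 43.12 FPKM with dexamethasone + cycloheximide, 9.376, 7.066 and 10.98 with cycloheximide and 17.96, 16.19 and 17.62 untreated (2.08 ± 0.10, limma, adjusted p = 0.00183). Its paralog RL4 (AT2G18328, chr2:7964393-7965169) had 64.6, 67.29 and 58.37 FPKM, against 17.41, 24.09 and 21.52 with cycloheximide and 37.78, 43.28 and 34.94 untreated (1.56 ± 0.11, limma, adjusted p = 0.00217). Both genes were lower with cycloheximide than untreated and lay above the untreated level when dexamethasone was added, with no overlap among the 3 groups. PAP1 (AT1G56650), which turns on anthocyanin synthesis, was also lowered by cycloheximide and came back to its low untreated range, with 2.002, 2.848 and 3.984 FPKM with dexamethasone + cycloheximide, 0.2383, 0.4082 and 0.4628 with cycloheximide and 3.309, 2.314 and 1.493 untreated (1.50 ± 0.22, limma, adjusted p = 0.0109). PAP1 was not called without pair 1 or 3. MYB21, a jasmonate-related regulator of stamen growth, had 49.39, 89.3 and 94.21 FPKM with dexamethasone + cycloheximide, 19.35, 33.96 and 31.3 with cycloheximide and 0.1628 to 0.4117 untreated (1.41 ± 0.10, limma, adjusted p = 0.00183). Another gene lies opposite 33.4% of its length, which makes its reads uncertain. MYB117 (AT1G26780, chr1:9270943-9272845), the boundary gene LOF1, had 17.59, 16.63 and 14.97 FPKM with dexamethasone + cycloheximide, 45.51, 43.81 and 46.26 with cycloheximide and 36.54, 35.33 and 27.93 untreated, so it fell below the level of both other groups (-1.41 ± 0.11, limma, adjusted p = 0.00256).

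Falls were also called among regulators of growth and organ polarity. In the TCP, GRF, GIF and SPL genes 7 of 40 fell (17.5%) and 4 rose (10%), against 4.94% and 8.71% of all loci. Without the block 5 of the falls and 1 of the rises were called. SPL8, which acts in anther and fertility programmes, had 90.43, 92.25 and 83.31 FPKM with dexamethasone + cycloheximide, 146.7, 139.4 and 140.8 with cycloheximide and 125.5, 113.5 and 125 untreated (-0.68 ± 0.07, limma, adjusted p = 0.00518). TCP20, a class I TCP gene, went the other way, with 43.66, 42.22 and 48.42 FPKM with dexamethasone + cycloheximide, 24.73, 26.04 and 29.47 with cycloheximide and 9.012 to 9.457 untreated (0.72 ± 0.05, limma, adjusted p = 0.00203). Both kept their calls under all 14 settings. Of 25 YABBY, KANADI and LOB-domain genes 4 fell (16%) and none rose, against 4.94% and 8.71% of all loci. The falls were YAB3 (-0.59), YAB5 (-0.43), YAB2 (-0.39) and the boundary gene LOB (-0.71). Without the block YAB3 was called and the others had adjusted p of 0.0702 to 0.0919 (limma). LOB was not called without any of the 3 pairs, nor YAB5 without pair 1 or 2. YAB3, of the lower side of organs, had 12.81, 11.37 and 12.23 FPKM with dexamethasone + cycloheximide, 22.24, 17.83 and 16.47 with cycloheximide and 26.1 to 28.18 untreated.

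Of 29 C2H2 zinc finger genes 5 fell (17.2%) and 6 rose (20.7%), against 4.94% and 8.71% of all loci. JKD, a patterning gene of the INDETERMINATE-domain family, had 17.2, 16.19 and 15.91 FPKM with dexamethasone + cycloheximide, 29.78, 33.56 and 28.46 with cycloheximide and 28.93, 33.73 and 30.79 untreated (-0.86 ± 0.08, limma, adjusted p = 0.00366). Its relatives SGR5 and IDD5 fell by 0.60 and 0.31, SGR5 not without the block (limma, adjusted p = 0.0634) or pair 1, and IDD5 not without any of the 3 pairs (limma, adjusted p = 0.0699 to 0.0869). Of the 6 rises 5 followed a rise with cycloheximide, and none was called without the block. Among bZIP genes 6 of 43 fell (14%) and 3 rose (6.98%), against 4.94% and 8.71% of all loci. Besides FD and BZIP27, bZIP42 had 1.796, 4.823 and 5.115 FPKM with dexamethasone + cycloheximide, 12.12, 11.57 and 12.18 with cycloheximide and 5.488 to 10.61 untreated (-1.48 ± 0.31, limma, adjusted p = 0.0284). It was not called without any of the 3 pairs (limma, adjusted p = 0.0728 to 0.126).

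Among the named falls were 3 precursors of small RNAs, TAS3 and MIR157a without a shift by cycloheximide and TAS3b after a drop with it (-1.60). The precursor TAS3 (AT3G17185, chr3:5861491-5862437), whose small RNAs cut transcripts of the auxin response factors ARF2, ARF3 and ARF4, had 5.707, 5.198 and 6.227 FPKM with dexamethasone + cycloheximide, 13.88, 11.72 and 16.89 with cycloheximide and 15.98, 14.64 and 13.78 untreated (-1.16 ± 0.08, limma, adjusted p = 0.00183). TAS3b had 1.601, 1.766 and 0.1684 FPKM, against 4.007, 3.017 and 3.664 with cycloheximide and 10.97 to 15.08 untreated (-1.16 ± 0.27, limma, adjusted p = 0.04, and 0.0744 without the block). MIR157a, a precursor of the miRNA that targets SPL genes, had 7.784, 6.565 and 4.544 FPKM with dexamethasone + cycloheximide, 19.54, 12.23 and 16.41 with cycloheximide and 14.54 to 18.51 untreated (-1.23 ± 0.17, limma, adjusted p = 0.00955). TAS3 was called under all 14 settings, TAS3b not in 10 of them, MIR157a not without pair 1, and 24.9% of the MIR157a locus lies opposite another gene. DCL4, the dicer that cuts TAS3 transcripts, had 27.65, 23.8 and 151.3 FPKM with dexamethasone + cycloheximide, 199.4, 490.3 and 264.4 with cycloheximide and 183.7 to 352.3 untreated (-2.64 ± 0.62, limma, adjusted p = 0.041, and 0.0693 without the block). Its libraries varied widely within a group, and without pair 1 or 2 it was not called (limma, adjusted p = 0.177 and 0.129). DUR, of the NAD(P)-binding Rossmann-fold family, varied likewise, with 14.16, 7.307 and 85.24 FPKM against 83.61, 159.2 and 203.3 with cycloheximide (-2.66 ± 0.67, limma, adjusted p = 0.0498, and 0.113 without the block), and was not called in 10 of the 14 settings.

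Auxin genes gave 6 rises and 6 falls among 84 tested (7.14% each), close to the 8.71% and 4.94% of all loci. The efflux carrier PIN3 fell to 3.305, 4.363 and 4.309 FPKM with dexamethasone + cycloheximide, against 7.467, 8.162 and 9.604 with cycloheximide and 5.468 to 5.973 untreated (-0.92 ± 0.07, limma, adjusted p = 0.00256). It had risen with cycloheximide and ended below untreated. ILL5, an auxin conjugate hydrolase homologue, had 4.855, 7.035 and 10.61 FPKM with dexamethasone + cycloheximide, 0.7923, 1.814 and 1.614 with cycloheximide and 0.1063 to 0.6173 untreated (1.79 ± 0.18, limma, adjusted p = 0.00477). GH3.1, of the family that conjugates auxin to amino acids, rose by 1.31 (limma, adjusted p = 0.00542, and 0.0693 without the block) on top of a rise of 7.39 with cycloheximide.

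Of 59 cytokinin genes 5 rose (8.47%) and 6 fell (10.2%), against 8.71% and 4.94% of all loci. The response factors CRF5 and CRF6 rose by 0.87 and 1.18 after rises of 2.24 and 2.50 with cycloheximide, neither of them called without the block (limma, adjusted p = 0.145 and 0.0697). The type-B response regulator RR10 had 35.78, 33.42 and 32.73 FPKM with dexamethasone + cycloheximide, 47.04, 45.13 and 44.08 with cycloheximide and 44.7 to 48.02 untreated (-0.41 ± 0.05, limma, adjusted p = 0.00892). In RR10 the dexamethasone libraries lay below all 6 others, and it was not called without pair 1. Gibberellin genes gave 5 rises (18.5%) and 2 falls (7.41%) of 27, against 8.71% and 4.94% of all loci. The DELLA repressor RGL3 had 93.39, 131.7 and 131.8 FPKM with dexamethasone + cycloheximide, 42.95, 73.98 and 56.73 with cycloheximide and 10.49 to 15.13 untreated (1.04 ± 0.14, limma, adjusted p = 0.00893), but it was not called without pair 1 (limma, adjusted p = 0.0601). GA2OX6, which inactivates gibberellin, rose by 0.68 with overlapping groups (limma, adjusted p = 0.0107, and 0.397 without the block), and not without pair 1 (limma, adjusted p = 0.0602).

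Brassinosteroid genes gave 5 rises (15.2%) and 2 falls (6.06%) of 33, against 8.71% and 4.94% of all loci. BR6OX2, the oxidase of the last steps of brassinolide synthesis, had 43.26, 37.84 and 35.44 FPKM with dexamethasone + cycloheximide, 23.98, 17.62 and 18.51 with cycloheximide and 10.95 to 18.73 untreated (0.93 ± 0.20, limma, adjusted p = 0.0302). BKI1, an inhibitor of the receptor BRI1, had 2.744, 3.209 and 2.691 FPKM with dexamethasone + cycloheximide, 6.323, 5.151 and 5.817 with cycloheximide and 3.157 to 4.024 untreated (-0.80 ± 0.12, limma, adjusted p = 0.012). BIM1, a partner of the brassinosteroid factor BES1, had 44.28, 44.15 and 43.65 FPKM with dexamethasone + cycloheximide, 33.11, 31.09 and 34.14 with cycloheximide and 47.51 to 52.05 untreated (0.42 ± 0.06, limma, adjusted p = 0.0115). None of the treated groups overlapped in these 3 genes. BR6OX2 was not called without any of the 3 pairs (limma, adjusted p = 0.105 to 0.127), BKI1 without pair 1 or 3 and BIM1 without pair 1 or 2.

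Abscisic acid and drought genes fell in 13 of 79 cases (16.5%) and rose in 7 (8.86%), against 4.94% and 8.71% of all loci. Of the falls 7 were in genes that cycloheximide had raised. LTI78, a marker of cold and drought known as RD29A, had 6.94, 6.702 and 9.177 FPKM with dexamethasone + cycloheximide, 22.89, 12.25 and 25.79 with cycloheximide and 9.264 to 14.27 untreated (-1.26 ± 0.20, limma, adjusted p = 0.0141), and was not called without pair 1 or 3. The receptor gene PYL1 fell to 17.02, 14.09 and 15.05 FPKM, against 25.55, 24.11 and 23.53 with cycloheximide and 28.34 to 31.06 untreated (-0.64 ± 0.06, limma, adjusted p = 0.00407). The receptors PYL5, PYL4 and RCAR3 also fell (-0.82, -0.75 and -0.39), PYL4 not without the block (limma, adjusted p = 0.052), while PYL7 rose by 0.34 (limma, adjusted p = 0.0155, and 0.0915 without the block). CYP707A4, which breaks abscisic acid down, had 0.3906, 0.5368 and 0.2264 FPKM with dexamethasone + cycloheximide, 2.058, 2.129 and 1.999 with cycloheximide and 3.766 to 5.365 untreated (-1.15 ± 0.14, limma, adjusted p = 0.00693). PYL1 was called under all 14 settings and CYP707A4 under the 13 in which it was tested. ERD7, a dehydration gene, was higher in replicate 3 of both treatments, with 23.08, 20.96 and 42.08 FPKM with dexamethasone + cycloheximide and 41.19, 34.77 and 85.36 with cycloheximide (-0.84 ± 0.08, limma, adjusted p = 0.00348, and 0.198 without the block).

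Among ethylene genes 5 of 29 rose (17.2%) and 4 fell (13.8%), against 8.71% and 4.94% of all loci. The ACC synthases ACS2 and ACS7 had 65.27, 99.49 and 164.1 and 3.973, 4.923 and 8.344 FPKM with dexamethasone + cycloheximide, against 9.725, 28.7 and 40.93 and 0.7868, 1.273 and 2.264 with cycloheximide. Untreated libraries had at most 0.1153 FPKM of ACS2 and 0.0138 of ACS7, and the differences were 2.12 ± 0.16 and 1.46 ± 0.09 (limma, adjusted p = 0.00218 and 0.00183, ACS2 0.0558 without the block). Of 51 jasmonate and terpene genes 39 were higher with cycloheximide than untreated, and 25.8% of all loci higher with cycloheximide rose with dexamethasone. Of the 51, 11 rose (21.6%) and none fell, with a median of 0.44 against 0.01 over all loci. Of these 11, 9 followed a rise with cycloheximide and 2 were called without the block. These 2 were MYB21 and the terpene synthase TPS02, with 7.114, 12.86 and 17.41 FPKM with dexamethasone + cycloheximide, 0.6144, 2.722 and 2.747 with cycloheximide and 0.05954 to 0.2075 untreated (2.17 ± 0.12, limma, adjusted p = 0.00183).

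Secreted peptide genes rose in 8 (17.8%) and fell in 7 (15.6%) of 45 cases, against 8.71% and 4.94% of all loci. RALF1 (AT1G02900, chr1:653765-654343), a peptide that inhibits cell expansion, had 34.28, 52.37 and 55.15 FPKM with dexamethasone + cycloheximide, 4.85, 7.666 and 12.64 with cycloheximide and 1.046 to 1.655 untreated (2.42 ± 0.15, limma, adjusted p = 0.00183). This was the largest rise among called genes with a symbol in log2(FPKM + 1), at 5.64 times the cycloheximide mean, while PAP1 and TPS02 rose to 7.96 and 6.15 times theirs from lower levels. CLE17 fell to 19.88, 14.22 and 14.89 FPKM, against 31.56, 26.04 and 24.15 with cycloheximide and 18.65 to 19.43 untreated (-0.71 ± 0.06, limma, adjusted p = 0.00256), and IDA, the abscission peptide, rose by 1.40 (limma, adjusted p = 0.00419, and 0.153 without the block). Of 81 receptor-like kinases 12 rose (14.8%) and 7 fell (8.64%), against 8.71% and 4.94% of all loci. Of these rises 11 followed a rise with cycloheximide. CRK40, a cysteine-rich receptor kinase, had 12.61, 14.11 and 24.3 FPKM with dexamethasone + cycloheximide, 1.799, 3.879 and 7.055 with cycloheximide and 0.06865 to 0.1412 untreated (1.85 ± 0.14, limma, adjusted p = 0.00228). RALF1, CLE17 and CRK40 were called under all 14 settings. The CLV1-related receptors BAM2 and BAM3 fell by 0.66 and 0.44 (limma, adjusted p = 0.00736 and 0.0136).

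Of 63 tested genes of the cuticle and surface lipids 14 (22.2%) fell and 2 (3.17%) rose, against 4.94% and 8.71% of all loci. Their median was -0.20 against 0.01 over all loci, and 7 falls and 1 rise were called without the block. Of the 14 falls 12 had also fallen with cycloheximide, and in this class 43 members had. KCS19, a ketoacyl-CoA synthase that elongates fatty acids, had 5.371, 5.699 and 5.606 FPKM with dexamethasone + cycloheximide, 8.385, 8.757 and 7.842 with cycloheximide and 11.73 to 12.49 untreated (-0.51 ± 0.06, limma, adjusted p = 0.00623). KCS2 had 8.806, 10.14 and 9.686 FPKM, against 19.15, 19.88 and 18.68 with cycloheximide and 47.84 to 61.94 untreated (-0.94 ± 0.10, limma, adjusted p = 0.00518), though 81.4% of it lies opposite another gene. Both stepped down without overlap at each comparison. The wax genes CER4 (-0.84), CER2 (-0.71) and CER1 (-0.56) fell, CER1 not without the block (limma, adjusted p = 0.065). GPAT1, an acyltransferase of lipid polymers, rose to 2.582, 3.234 and 5.475 FPKM, against 1.096, 0.7836 and 1.568 with cycloheximide and 0.4582 to 0.5918 untreated (1.12 ± 0.14, limma, adjusted p = 0.00696).

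Cell wall genes gave 24 falls (14.5%) and 16 rises (9.64%) among 166, against 4.94% and 8.71% of all loci. Without the block 5 falls and 1 rise were called. XTH28 (AT1G14720, chr1:5066636-5068645), a xyloglucan-remodelling enzyme of stamen filaments, had 28.32, 25.82 and 31.73 FPKM with dexamethasone + cycloheximide, 58.67, 59.15 and 56.83 with cycloheximide and 54.47 to 58.4 untreated (-1.0 ± 0.08, limma, adjusted p = 0.00244). The transport gene with the smallest p was ABCG8 (AT5G52860, chr5:21419776-21421567), an ABC transporter, with 5.266, 4.327 and 4.684 FPKM with dexamethasone + cycloheximide, 12.63, 11.62 and 12.15 with cycloheximide and 12.8 to 13.77 untreated (-1.19 ± 0.06, limma, adjusted p = 0.00183). In XTH28 and ABCG8 the libraries with dexamethasone lay alone, and both calls held under all 14 settings. Of 195 genes of sugar, nitrogen and nutrient transport 29 rose (14.9%) and 19 fell (9.74%), against 8.71% and 4.94% of all loci. Of these rises 24 followed a rise with cycloheximide. Of 21 aquaporins 4 fell (19%) and none rose, against 4.94% and 8.71% of all loci. The falls were TIP2 (-0.75), DELTA-TIP (-0.71), GAMMA-TIP (-0.60) and PIP2E (-0.60), of which DELTA-TIP and PIP2E were called without the block. DELTA-TIP, PIP2E and TIP2 were not called without pair 1 (limma, adjusted p = 0.0713, 0.0771 and 0.157) or pair 2 (limma, adjusted p = 0.0622, 0.0803 and 0.131), nor PIP2E with the 6 treated libraries alone. TIP2 had already dropped by 3.15 with cycloheximide, and its 44.19 to 51.68 FPKM with dexamethasone + cycloheximide compare with 59.1 to 95.37 with cycloheximide and 632.9 to 781.5 untreated.

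Cell cycle genes fell in 13 of 90 cases (14.4%) and rose in 1, against 4.94% and 8.71% of all loci. Their median was -0.14 against 0.01 over all loci, and 4 falls and the rise were called without the block. CYCD1;1, a D-type cyclin of the entry into division, had 13.62, 14.7 and 11.27 FPKM with dexamethasone + cycloheximide, 24.14, 22.53 and 20.52 with cycloheximide and 44.96 to 46.23 untreated (-0.73 ± 0.06, limma, adjusted p = 0.00273). CYCD3;1 had 71.75, 71.79 and 62.96 FPKM, against 111, 98.36 and 88.34 with cycloheximide and 151.7 to 163.5 untreated (-0.52 ± 0.07, limma, adjusted p = 0.00853). In both genes the 3 groups did not overlap, and CYCD3;1 was not called without pair 1 (limma, adjusted p = 0.0545). The rise was in MYB3R2, a MYB gene of the division programme, with 79.02, 58.74 and 71.99 FPKM, against 27.52, 32.94 and 39.65 with cycloheximide and at most 0.08032 untreated (1.05 ± 0.13, limma, adjusted p = 0.00809). Of the 13 falls 11 had also fallen with cycloheximide.

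**Figure D5:**
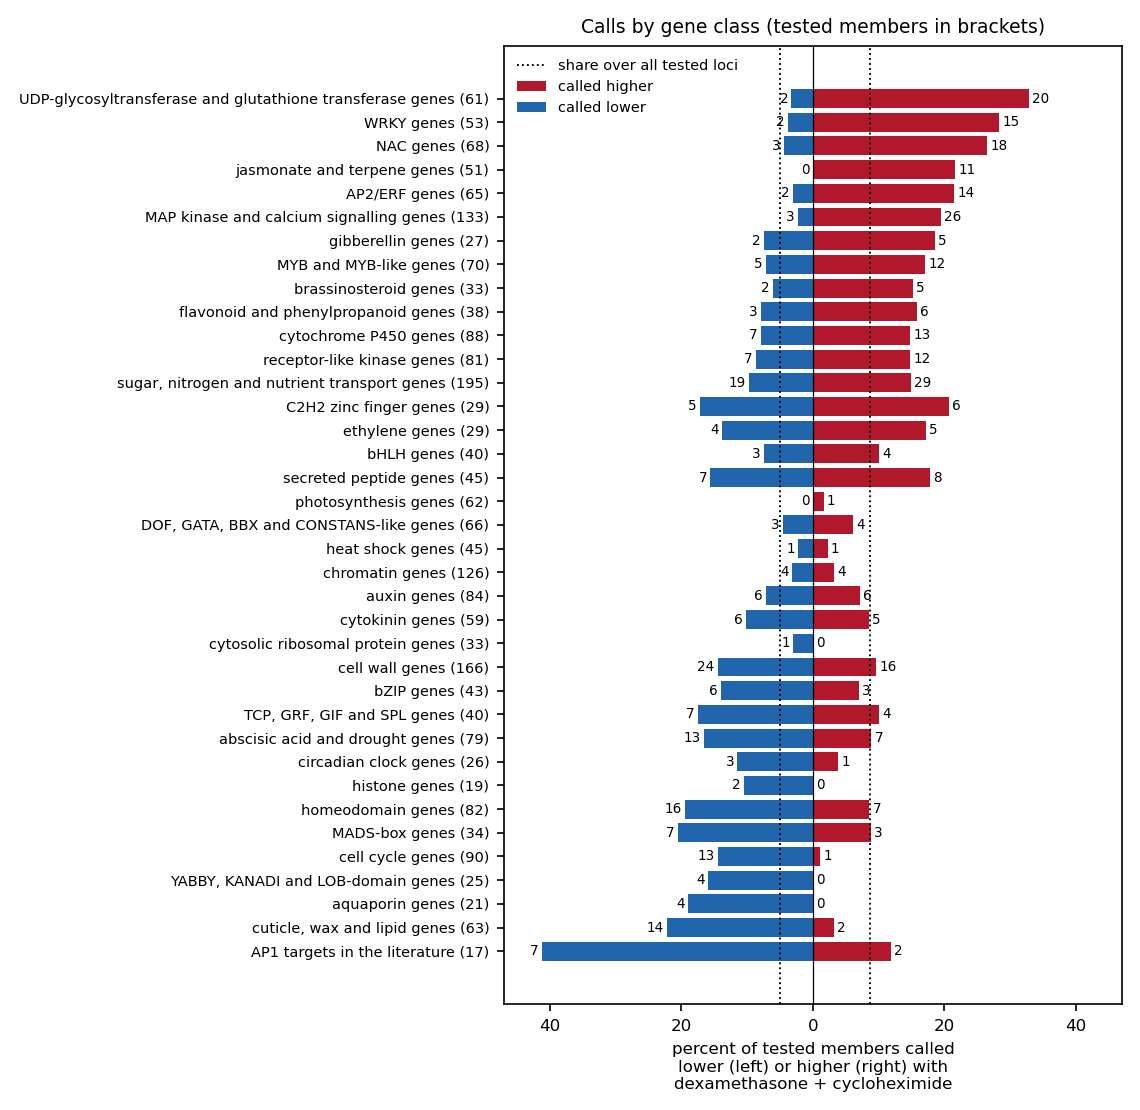
Percent of tested members called lower (bars to the left) and higher (bars to the right) with dexamethasone + cycloheximide, for gene classes with at least 17 tested members. The number of called members stands beside each bar. Smaller classes, such as the ALOG and shoot meristem genes, are not drawn. Dotted lines mark the shares over all tested loci, 4.94% lower and 8.71% higher. Among the classes drawn, glycosyltransferases and glutathione transferases, WRKY and NAC genes reach farthest right and the literature targets of AP1 farthest left.

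Rises were more frequent in WRKY, NAC and AP2/ERF genes, families with many stress regulators, than the 8.71% of all loci. Of all loci higher with cycloheximide than untreated, however, 25.8% rose. These loci held 43 of the 53 WRKY, 37 of the 68 NAC and 43 of the 65 AP2/ERF genes. The part of this make-up in the family shares was not tested. WRKY genes rose in 15 of 53 cases (28.3%), all 15 shifted the same way, NAC genes in 18 of 68 (26.5%), 17 the same way, and AP2/ERF genes in 14 of 65 (21.5%), 10 the same way. Without the block 1, 4 and 4 of these rises were called. WRKY59 had 3.8, 3.226 and 5.964 FPKM with dexamethasone + cycloheximide, 0.6992, 0.4562 and 1.403 with cycloheximide and at most 0.0427 untreated (1.52 ± 0.10, limma, adjusted p = 0.00183). WRKY12, which acts in pith cells and in flowering, fell instead, with 3.671, 3.275 and 2.635 FPKM, against 8.251, 7.263 and 7.007 with cycloheximide and 11.5 to 15.22 untreated (-1.03 ± 0.11, limma, adjusted p = 0.00486). The low-oxygen factor ERF71 had 34.72, 24.96 and 58.76 FPKM with dexamethasone + cycloheximide, 4.644, 6.65 and 14.35 with cycloheximide and at most 0.1733 untreated (2.13 ± 0.17, limma, adjusted p = 0.00251). WRKY12 and ERF71 were called under all 14 settings, and WRKY59 and NAC042 (1.48 ± 0.15) under the 13 in which they were tested. TINY2, of the DREB group, rose without a shift by cycloheximide, to 1.823, 1.412 and 1.963 FPKM, against 0.6882, 0.4479 and 0.4571 with cycloheximide and 0.6616 to 1.282 untreated (0.83 ± 0.16, limma, adjusted p = 0.0221). TINY2 was not called without any of the 3 pairs (limma, adjusted p = 0.0672 to 0.0878).

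Glycosyltransferases and glutathione transferases rose in 20 of 61 cases (32.8%), all after a rise with cycloheximide, against 8.71% of all loci. Their median was 0.30, but 2 of these rises were called without the block. Of the 61 genes 32 were higher with cycloheximide than untreated, and 25.8% of all such loci rose. UGT74E2, which glucosylates an auxin, had 69.51, 76.78 and 200.8 FPKM with dexamethasone + cycloheximide, 14.21, 20.86 and 61.46 with cycloheximide and 1.202 to 1.974 untreated (1.91 ± 0.15, limma, adjusted p = 0.00244, and 0.0896 without the block). Replicate 3 was the highest in both treatments and the groups came close, and each pair was higher with dexamethasone. The same pattern ran through the mitochondrial stress gene AOX1D, at 21.2, 34.69 and 81.27 FPKM against 3.158, 8.57 and 16.99 with cycloheximide (2.17 ± 0.11, limma, adjusted p = 0.00183, and 0.0755 without the block), and through PHT3;2, GSTU25, DTX1, WRKY30, NAC13 and CYP81D8, with rises of 1.42 to 2.03 and adjusted p of 0.0511 to 0.0884 without the block (limma). MAP kinase and calcium signalling genes rose in 26 of 133 cases (19.5%), 1 of them called without the block. Of the 133 genes 67 were higher with cycloheximide than untreated. The part of this make-up in the shares of both classes was not tested. Whether the rises named here come from AP1-GR or from a stronger cycloheximide response was not tested.

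Of the named rises not shifted by cycloheximide, MIPS1 had the smallest p. MIPS1 (AT4G39800, chr4:18469348-18471967), the first enzyme of inositol synthesis, had 57.06, 75.73 and 68.03 FPKM with dexamethasone + cycloheximide, 29.68, 40.44 and 36.62 with cycloheximide and 32.23 to 35.89 untreated (0.89 ± 0.06, limma, adjusted p = 0.00183). MIPS1 was called under all 14 settings, and its dexamethasone libraries lay above all others. AAS, an aromatic aldehyde synthase, had 62.84, 111.5 and 120.9 FPKM with dexamethasone + cycloheximide, 29.51, 55.21 and 42.48 with cycloheximide and 35.08 to 38.39 untreated (1.18 ± 0.10, limma, adjusted p = 0.00292, and 0.0571 without the block). NAI2, a protein that forms endoplasmic reticulum bodies, had 304.8, 303.1 and 360.1 FPKM with dexamethasone + cycloheximide, 106.6, 146.5 and 128.2 with cycloheximide and 129.9 to 224.4 untreated (1.34 ± 0.23, limma, adjusted p = 0.0175). PYK10, the glucosidase stored in these bodies, had 79.45, 138.8 and 147.9 FPKM with dexamethasone + cycloheximide, 34.92, 73.95 and 52.75 with cycloheximide and 90.51 to 156.5 untreated (1.18 ± 0.21, limma, adjusted p = 0.0192, and 0.0875 without the block). NAI2 rose above its untreated level, while PYK10 overlapped its untreated range after a drop with cycloheximide. Neither was called without pair 1 or pair 3, nor PYK10 without pair 2.

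Further named rises not shifted by cycloheximide were VATG3, KAT1, MC7, ANNAT3, CBSX4, GGP1 and NET1D. VATG3, a subunit of the vacuolar proton pump, had 6.168, 12.06 and 13.43 FPKM with dexamethasone + cycloheximide, 2.909, 1.084 and 3.523 with cycloheximide and 1.495 to 2.337 untreated (1.73 ± 0.31, limma, adjusted p = 0.02). KAT1, a potassium channel of guard cells, had 5.349, 4.321 and 4.757 FPKM, against 0.939, 1.396 and 1.941 with cycloheximide and 0.6938 to 2.16 untreated (1.28 ± 0.26, limma, adjusted p = 0.0263). These genes stood clear of both other groups, but VATG3 was not called without pair 3 nor KAT1 without any of the 3 pairs. The metacaspase MC7 (1.19), the annexin ANNAT3 (1.10), CBSX4 (0.96), GGP1 (0.94) and NET1D (0.82) were not called without the block (limma, adjusted p = 0.0558 to 0.101), nor MC7 and ANNAT3 without pair 1 or 3, CBSX4 without pair 2, and GGP1 and NET1D without any of the 3 pairs. CBSX4 was low, with 0.5061, 0.783 and 0.7291 FPKM with cycloheximide and 0.238 to 0.2862 untreated. Its cycloheximide libraries thus lay above the untreated ones, although the difference in log2(FPKM + 1) was only 0.40. UMAMIT12, of a family of amino acid transporters, with 11.11, 14.91 and 16.84 FPKM against 6.048, 8.489 and 9.119 with cycloheximide and 6.48 to 7.465 untreated (0.78 ± 0.07, limma, adjusted p = 0.00267), was called under all 14 settings.

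Further falls are set apart by what cycloheximide did. Not shifted by it was FSD1, a plastid superoxide dismutase, with 2.918, 0.739 and 2.722 FPKM with dexamethasone + cycloheximide, 9.952, 4.153 and 5.977 with cycloheximide and 6.089 to 9.717 untreated (-1.32 ± 0.20, limma, adjusted p = 0.012, and 0.0857 without the block), and not called without pair 1 or 2 (limma, adjusted p = 0.0763 and 0.0571). HIPP22, a metal-binding protein, differed by -1.20 ± 0.29 (limma, adjusted p = 0.0456, and 0.0879 without the block), and was not called in 10 of the 14 settings. Raised by cycloheximide and lowered by dexamethasone were SWEET10, a sugar transporter under the control of FT, BCAT-2, of branched-chain amino acid breakdown, and the sulfate transporter AST91. SWEET10 had 1.21, 2.116 and 0.4788 FPKM with dexamethasone + cycloheximide, 4.96, 4.612 and 4.105 with cycloheximide and 2.041 to 3.194 untreated (-1.36 ± 0.21, limma, adjusted p = 0.0121). BCAT-2 had 6.109, 8.54 and 6.157 FPKM, against 18.96, 15.63 and 15.03 with cycloheximide and 9.218 to 12.03 untreated (-1.15 ± 0.15, limma, adjusted p = 0.0081). In SWEET10 and BCAT-2 the level with both compounds ended below or at the edge of the untreated range, whereas AST91, at 16.48 to 26.32 FPKM against 40.33 to 41.66 with cycloheximide and 15.9 to 22.42 untreated, had 2 of its 3 libraries within that range and the third above it (-1.03 ± 0.16, limma, adjusted p = 0.0137). Lowered by both steps were the starch-degrading amylase CT-BMY (-1.27, 21.8% of it opposite another gene) and the cold gene RCI2A (-1.23, 39.8%), so their reads are uncertain. BCAT-2 and RCI2A were called under all 14 settings, CT-BMY not without pair 1, and SWEET10 and AST91 not without pair 1 or 3.

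Photosynthesis and cytosolic ribosomal protein genes had few calls between the treated groups, although most were lower with cycloheximide than untreated. Of 62 photosynthesis genes 1 rose and none fell with dexamethasone, while 57 were lower with cycloheximide than untreated, and their summed level was 7352 to 8827 FPKM with dexamethasone + cycloheximide, 7963 to 8229 with cycloheximide and 15141 to 16140 untreated. Of 33 cytosolic ribosomal protein genes 1 fell and none rose, while 30 were lower with cycloheximide. Chromatin genes gave 4 rises and 4 falls of 126 (3.17% each), heat shock genes 1 and 1 of 45 (2.22% each), circadian clock genes 1 and 3 of 26 (3.85% and 11.5%), and the 3 strigolactone genes none. Over all 2223 tested members of the 42 classes, 268 rose and 208 fell. Of all tested loci 8.71% rose and 4.94% fell.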

How the data were processed

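The authors deposited 1 table of FPKM values per locus and library. Per the submitters' processing notes it was made with TopHat, Cufflinks and Cuffdiff on the TAIR10 build. Their versions are not given in the sources used here. Strand is uncertain: the library kit named in the labels does not mark strand while the series text speaks of strand-specific sequencing, so reads of overlapping opposite genes cannot be told apart, and 1276 tested single-gene loci overlap such a gene over more than 20% of their length. Gene identity came from the TAIR10.1 annotation of RefSeq, and promoter windows from its sequence table.

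FPKM were transformed to log2(FPKM + 1) and fitted with limma 3.58.1 in R 4.3.3 (intensity trend, moderated variances, two-sided, Benjamini-Hochberg over 19569 loci, call at adjusted p under 0.05). All 9 libraries entered the fit, with 4 residual degrees of freedom. The replicate number was a block in the 6 treated libraries, and untreated libraries had a mean of their own. Deviations from the group mean correlated at 0.353, 0.131 and 0.213 between treated libraries of the same number, against -0.281 to 0.113 between other numbers, and at -0.115 to 0.108 between untreated and treated libraries of the same number. No label says what the numbers share. Libraries are labelled biological replicates, with no word on separate plants. With the block, p-values measure the spread of the differences within pairs, pooled with the spread among untreated libraries. They do not measure the full spread between replicates of a treatment. With the 6 treated libraries alone 1544 loci were called, against 2670 in the main fit. Tables were made with pandas 2.3.3 and numpy 2.4.6 under Python 3.11.15, and figures with matplotlib 3.10.9.

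Gene classes were built from symbols and RefSeq products, and 81 genes that share a symbol with an unrelated gene were left out on their product after the first lists were seen. The members, classes and tests were chosen with earlier results of these data known. Named genes were AP1 and CAL, the largest called changes with a symbol and 3 pairs in the same direction (12 rises and 12 falls not shifted by cycloheximide, 6 and 6 shifted the same way, 6 and 6 the opposite way), up to 3 called members of each class with the smallest p, and the literature list. Some genes that these rules select, and a promoter sequence, are not reported here. Other class members given with values (such as HB51, HB-2, HB17, KNAT1, KNAT6, PHV, PHB, ATHB-15, YAB2, PYL4, PYL5, PYL7, RCAR3, BAM2, BAM3, CER1, CER2, CER4 and GAMMA-TIP) were chosen after their values were seen. The fit was tested on simulated data before use. It called 74 of 100 loci changed by a log2 difference of 1 and 94 of 100 changed by 2, with 5.62% false calls. The simulation gave treated libraries of the same number a shared deviation, so it cannot judge the choice of the block.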

Additional observations from a re-analysis of the deposited data

How the results depend on the processing

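The main counts, with the replicate block in the treated libraries, were 1704 rises and 966 falls, of which 166 and 221 were not shifted by cycloheximide. With no replicate block they were 374, 349, 53 and 100, with the block over all 9 libraries 635, 467, 77 and 118, and with the 6 treated libraries alone 1024, 520, 103 and 138, in the same order. Leaving out 1 replicate pair or 1 untreated library gave 457 to 2017 rises, 184 to 1190 falls, 14 to 253 rises not shifted and 51 to 288 falls not shifted, with the lowest values of all 4 without pair 1. A pseudocount of 0.1, another FPKM minimum or none, median-ratio scaling and leaving out loci under 300 bp kept all 4 counts within 1.5 times. Of the 148 named genes called, 38 were called under all 14 alternatives and 8 under the 13 that tested them (their mean was under 5 FPKM), 102 were lost under at least 1, 82 were called with no replicate block, and none reversed. The cause of these losses was not tested. Fits that leave out a pair hold fewer libraries. Depth per library is known only in relative terms, so no counting error can be given.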

Other observations

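Some of the largest changes were in loci with no symbol, outside the gene classes. AT3G56010 (chr3:20788626-20789964) had 28.38, 27.53 and 34.41 FPKM with dexamethasone + cycloheximide, 728.6, 1805 and 1403 with cycloheximide and 326.7, 3155 and 2225 untreated. Its dexamethasone libraries were alike and far below the rest, while the other 6 varied widely among themselves (-5.31 ± 0.84, limma, adjusted p = 0.0135). AT4G38330 had 28.39, 32.7 and 31.72 FPKM with dexamethasone + cycloheximide, 133.6, 164.8 and 457.2 with cycloheximide and 94.04, 75.38 and 102.7 untreated (-2.77 ± 0.32, limma, adjusted p = 0.00588). AT5G24640, which cycloheximide had also raised, rose further, at 196.1, 130 and 335.8 FPKM with dexamethasone + cycloheximide, 21.93, 34.75 and 88.24 with cycloheximide and at most 0.1168 untreated (2.30 ± 0.23, limma, adjusted p = 0.0045). These 3 loci were chosen after their values were seen.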
